A study of Homo sapiens with 6 samples.

Results

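The genes of 10 histone lysine demethylases were followed: KDM1A, KDM2A, KDM2B, KDM3A, KDM4A, KDM4B, KDM5A, KDM5B, KDM6A and KDM6B. They were taken by symbol, as 10 of the 41471 symbols tabulated for the CDK16 knockdown experiment and 10 of the 34157 symbols tabulated for the Rebastinib experiment. The set was chosen by the knockdown counts, for the higher KDM6B count with both CDK16 hairpins than with the control hairpin, so the knockdown values below are a description and carry no test. All 10 genes passed the filter of a mean of at least 1 CPM (counts scaled to a common library depth) in both experiments.

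The cells were MDA-MB-231, a triple negative breast cancer line, and mRNA was sequenced from 6 libraries in 2 experiments. In the first, cells carried a stable lentiviral scramble shRNA (scramble) or an shRNA against the cyclin-dependent kinase CDK16 (CDK16-sh1 or CDK16-sh2). In the second, cells received DMSO or the kinase inhibitor Rebastinib (Reb) at 1 μM or 5 μM, and were harvested after 48 h. Each condition was 1 library, so no condition had a replicate, both hairpins shared the scramble library, and both doses shared the DMSO library. The lentiviral lines went through integration and selection that the DMSO cells did not, and a hairpin cannot be told apart from the cell line that carries it.

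Histone lysine demethylases remove methyl groups from lysines of histone tails. KDM1A does so with a flavin cofactor and acts on mono- and dimethylated residues, whereas the other families are Jumonji enzymes that use iron, oxygen and 2-oxoglutarate, and several of them also act on trimethylated residues. KDM6A and KDM6B take methyl groups off H3K27, the residue that Polycomb repressive complex 2 (PRC2) methylates at silenced genes, and KDM6B is known as a gene that is induced by inflammatory and stress signals.

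RefSeq start sites and their promoter windows are shown first, because KDM6B has 2 listed starts and the deposited gene model reaches only the downstream start. The model of KDM6B ran from chr17:7839904-7854796 on the plus strand with 7258 exonic bases, while the upstream RefSeq start lay 5687 bases before it, so reads of an upstream first exon were not counted as KDM6B. All 10 genes matched RefSeq (GRCh38.p14), with 16 windows among 35116, each holding 250 bases before and 50 after a start. Capitals mark GGGCGG (GC box), CCAAT (the box of that name), TGACTCA (AP-1 site), TGACGTCA (CRE) and ACGTG (the core of hypoxia response elements), read on both strands. The windows of KDM6A, KDM1A and KDM4A are added because KDM6A is the paralog of KDM6B and the others stood at opposite ends of the demethylase genes at 5 μM Reb.
KDM6B upstream start, chr17:7833967-7834266, plus strand: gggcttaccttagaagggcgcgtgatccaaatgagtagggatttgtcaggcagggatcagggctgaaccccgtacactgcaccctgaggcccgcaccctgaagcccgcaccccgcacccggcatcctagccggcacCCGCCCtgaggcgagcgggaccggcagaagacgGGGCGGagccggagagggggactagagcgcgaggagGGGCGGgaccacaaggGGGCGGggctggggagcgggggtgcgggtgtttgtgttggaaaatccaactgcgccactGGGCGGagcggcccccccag
KDM6B downstream start, chr17:7839667-7839966, plus strand: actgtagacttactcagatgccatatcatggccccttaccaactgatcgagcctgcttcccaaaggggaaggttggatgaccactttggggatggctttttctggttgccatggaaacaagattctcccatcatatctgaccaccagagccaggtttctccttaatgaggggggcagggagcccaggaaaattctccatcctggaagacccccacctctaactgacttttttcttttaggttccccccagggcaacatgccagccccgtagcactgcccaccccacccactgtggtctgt
KDM6A, chrX:44872938-44873237, plus strand: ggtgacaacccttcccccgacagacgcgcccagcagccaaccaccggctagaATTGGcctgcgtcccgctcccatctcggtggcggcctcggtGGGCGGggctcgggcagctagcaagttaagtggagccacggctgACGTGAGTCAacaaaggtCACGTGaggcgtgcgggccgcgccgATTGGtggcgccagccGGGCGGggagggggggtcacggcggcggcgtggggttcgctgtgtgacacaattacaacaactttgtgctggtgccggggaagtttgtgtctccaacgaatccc
KDM1A, chr1:23019218-23019517, plus strand: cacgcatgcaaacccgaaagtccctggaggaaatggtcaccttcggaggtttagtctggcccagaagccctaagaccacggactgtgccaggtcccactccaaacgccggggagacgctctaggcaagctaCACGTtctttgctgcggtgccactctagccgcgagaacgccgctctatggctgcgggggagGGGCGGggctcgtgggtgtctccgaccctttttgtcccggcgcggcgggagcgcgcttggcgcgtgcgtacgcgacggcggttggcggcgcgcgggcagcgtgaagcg
KDM4A, chr1:43649899-43650198, plus strand: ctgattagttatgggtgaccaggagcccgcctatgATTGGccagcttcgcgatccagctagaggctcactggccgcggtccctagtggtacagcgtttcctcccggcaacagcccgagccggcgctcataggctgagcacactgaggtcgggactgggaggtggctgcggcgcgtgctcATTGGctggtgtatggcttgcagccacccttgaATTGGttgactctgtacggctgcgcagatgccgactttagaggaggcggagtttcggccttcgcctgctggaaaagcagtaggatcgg

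The upstream KDM6B window held 5 GC boxes, 24 CpG dinucleotides and 69.3% G or C. The downstream window, where the deposited model begins, held 0 of the motifs searched, 2 CpG dinucleotides and 53.0% G or C. Over all windows the median was 14 CpG dinucleotides and 58.7% G or C, and 45.0% held a GC box. KDM6A carried 2 GC boxes, 2 CCAAT boxes, 1 AP-1 site and 3 hypoxia cores, of which 1 core overlapped the AP-1 site and 2 lay on opposite strands of the same CACGTG. KDM1A had 1 GC box and 1 hypoxia core, and KDM4A had 3 CCAAT boxes and no GC box. CCAAT boxes were in 34.6% of all windows, AP-1 sites in 4.95%, CRE in 1.85% and hypoxia cores in 21.4%. These matches describe letters in the windows only.

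Library totals ran from 25838443 to 31955119 counts in the knockdown experiment and from 37655548 to 50303269 in the Reb experiment. Mitochondrial transcripts took 7.19% to 16.4% of the counts, with the highest shares in CDK16-sh2 (16.2%) and Reb 5 μM (16.4%). The 100 highest genes took 35.3% of the counts at 5 μM Reb, against 24.3% with DMSO. Scaling by library totals in place of TMM moved the median log2 fold change over all genes by -0.68 at 5 μM Reb and by -0.19 in CDK16-sh2. Both scalings are given where the sign or the 2-fold limit at 5 μM turns on them, for demethylase genes and list genes described there. CDK16 itself counted 3223, 1360 and 846 in scramble, CDK16-sh1 and CDK16-sh2 (log2 fold changes of -1.52 and -1.82). With Reb, CDK16 counted 4996 (DMSO), 4609 (1 μM) and 2797 (5 μM). Its log2 fold change at 5 μM was 0.27 with TMM and -0.42 by library totals. The 6 genes listed as high in MDA-MB-231 (VIM, CD44, AXL, CAV1, MSN, S100A4) had counts in every library and summed to 4800 to 7757 CPM. The 8 luminal breast markers summed to 4.49 to 31.5 CPM and the 7 leukocyte and endothelial markers to 1.16 to 7.08 CPM, with CD3E at 0 counts in 5 of the 6 libraries.

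KDM6B was the only one of the 10 genes past 2-fold in a hairpin library, and it was past 2-fold in both. It counted 294 with scramble, 1693 in CDK16-sh1 and 786 in CDK16-sh2, or 10.8, 51.3 and 31.1 CPM after TMM scaling. The scramble library was thus the low one, and the CDK16-sh1 library stood highest. CDK16-sh1 was 4.73-fold above scramble, a log2 fold change of 2.24 with a 95% interval of 2.07 to 2.43. CDK16-sh2 was 2.87-fold above it, at 1.52 (1.33 to 1.72). These Clopper-Pearson intervals, and all those below, cover counting error only, not the spread between cultures. At least 2-fold higher values were found for 4.33% of the 15295 tested genes with the sh1 hairpin, 2.20% with sh2 and 0.438% with both (at least 2-fold lower with both: 1.44%), and nothing is read from these shares about KDM6B, since that contrast chose it. KDM6B ranked above 99.9% and 99.7% of tested genes in the respective hairpin libraries. Between the hairpins, CDK16-sh2 was lower than CDK16-sh1 by a log2 difference of -0.72 (-0.85 to -0.60), so the hairpin library with the lower CDK16 count held less KDM6B than the other.

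**Figure D1:**
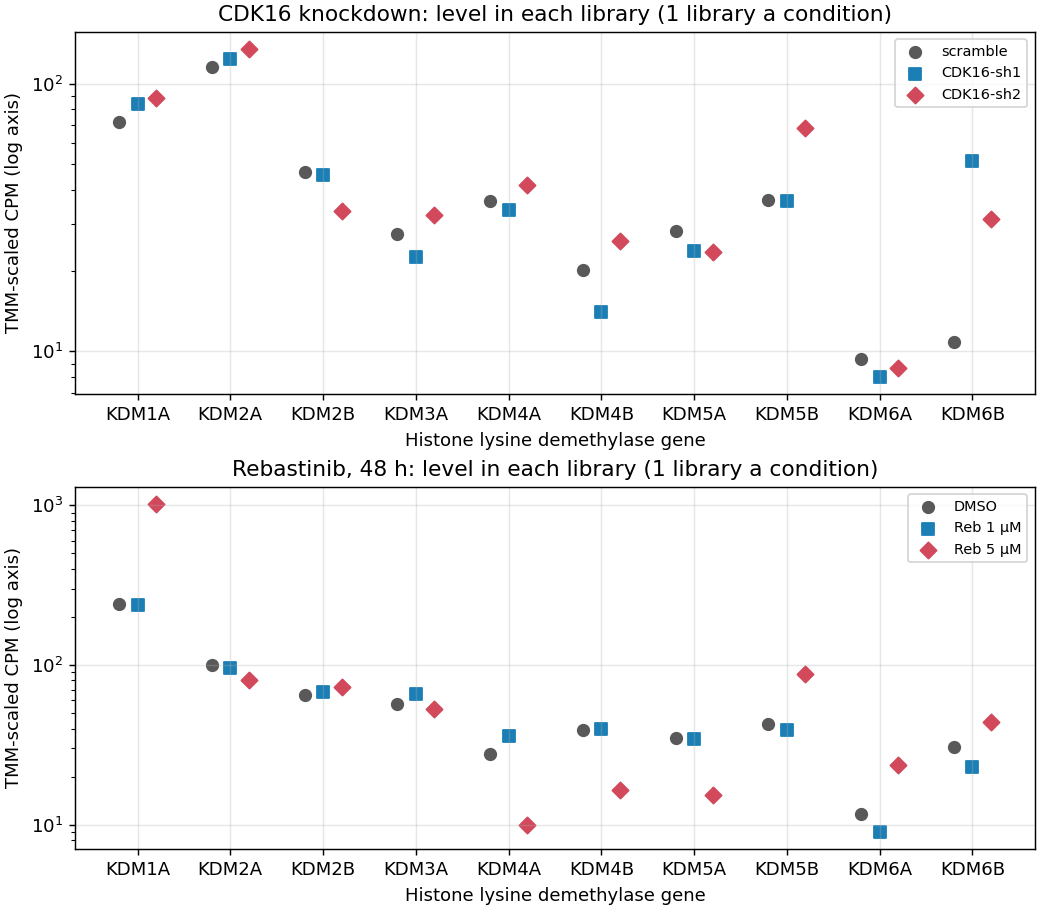
TMM-scaled CPM (log axis) of the 10 demethylase genes, 1 point a library, with the knockdown experiment above and the Reb experiment below. KDM6B is at 10.8 CPM with scramble against 51.3 and 31.1 with the hairpins, and KDM1A is at 1023 CPM with 5 μM Reb against 243 with DMSO.

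The other H3K27 demethylase did not share this difference. KDM6A, on the X chromosome, counted 254, 264 and 220 in scramble, CDK16-sh1 and CDK16-sh2. Its log2 fold changes were -0.22 (-0.48 to 0.03) and -0.10 (-0.37 to 0.17). Both intervals include 0. Per length, and within a library so that no scaling enters, KDM6B stood at 1.14 times KDM6A with scramble (0.96 to 1.35), 6.31 times in CDK16-sh1 (5.54 to 7.21) and 3.51 times in CDK16-sh2 (3.02 to 4.10). The scramble library held the paralogs at nearly equal levels, and the hairpin libraries did not. These ratios are not corrected for the GC content of the transcript, which was 62.4% for KDM6B and 43.5% for KDM6A. With GC and length trends removed, log2 fold changes in CDK16-sh1 were 1.96 for KDM6B and 0.09 for KDM6A. In CDK16-sh2 they were 1.47 and 0.01. Set against EZH2, the catalytic subunit of PRC2, KDM6B was at 0.0587 of the EZH2 level per length with scramble, 0.397 in CDK16-sh1 and 0.204 in CDK16-sh2. EZH2 itself counted 3119, 2659 and 2396, so it was slightly lower in both hairpin libraries (log2 fold changes of -0.51 and -0.27).

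The 8 genes that act on H3K4, H3K36 or H3K9 held closer to scramble. KDM1A, the flavin-dependent H3K4 demethylase of the CoREST complex, had 72.1, 83.8 and 88.3 CPM in scramble and the 2 hairpin libraries. It lay above scramble by 0.22 and 0.29 on the log2 scale. KDM2A, an H3K36 demethylase that binds unmethylated CpG islands, had 115, 124 and 135 CPM, and log2 fold changes of 0.10 and 0.22. KDM1A, KDM2A and KDM6B were the only genes of the 10 above scramble in both hairpin libraries, where 32.2% of tested genes were. KDM2B, the related enzyme that recruits the Polycomb complex PRC1.1 to CpG islands, was at 46.6, 45.7 and 33.3 CPM, so only CDK16-sh2 stood apart (-0.48, interval -0.61 to -0.36).

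Among the H3K9 demethylases CDK16-sh2 stood above CDK16-sh1. KDM3A, which acts on mono- and dimethylated H3K9, had 27.4, 22.5 and 32.4 CPM, with log2 fold changes of -0.28 and 0.24, or 0.17 and 0.50 with GC and length trends removed. KDM4A, which acts on trimethylated H3K9 and H3K36, had 36.4, 33.8 and 41.8 CPM, and log2 fold changes of -0.11 (-0.23 to 0.02) and 0.20, the latter 0.0018 by library totals. KDM4B, its paralog, had 20.1, 13.98 and 25.9 CPM, and log2 fold changes of -0.52 and 0.37. By TMM-scaled CPM, CDK16-sh1 was the lowest library and CDK16-sh2 the highest in all 3 genes. For KDM3A scramble was the lowest with GC and length trends removed. The H3K4 demethylases of the KDM5 family differed from each other. KDM5A had 28.2, 23.8 and 23.4 CPM, or -0.25 and -0.27 on the log2 scale, and 0.17 and -0.04 with GC and length trends removed. KDM5B had 36.7, 36.4 and 68.2 CPM, level with scramble in CDK16-sh1 (-0.01, or 0.36 with those trends removed) and higher in CDK16-sh2 (0.89, interval 0.78 to 1.01). Per length, KDM5B was 1.30 times KDM5A with scramble, 1.53 times in CDK16-sh1 and 2.91 times in CDK16-sh2.

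The median over the 10 genes was -0.07 with the sh1 hairpin and 0.23 with sh2 (log2 fold change), beside -0.00 and 0.02 over all tested genes. In CDK16-sh1, 3 of the 10 were above scramble, where 49.9% of tested genes were, and in CDK16-sh2, 7 were, where 51.4% were. The count in CDK16-sh1 depended on the processing, since KDM3A, KDM5A, KDM5B and KDM6A changed to above scramble with GC and length trends removed. None of the 10 was 2-fold lower in either hairpin library, where 6.86% and 7.62% of tested genes were.

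**Figure D2:**
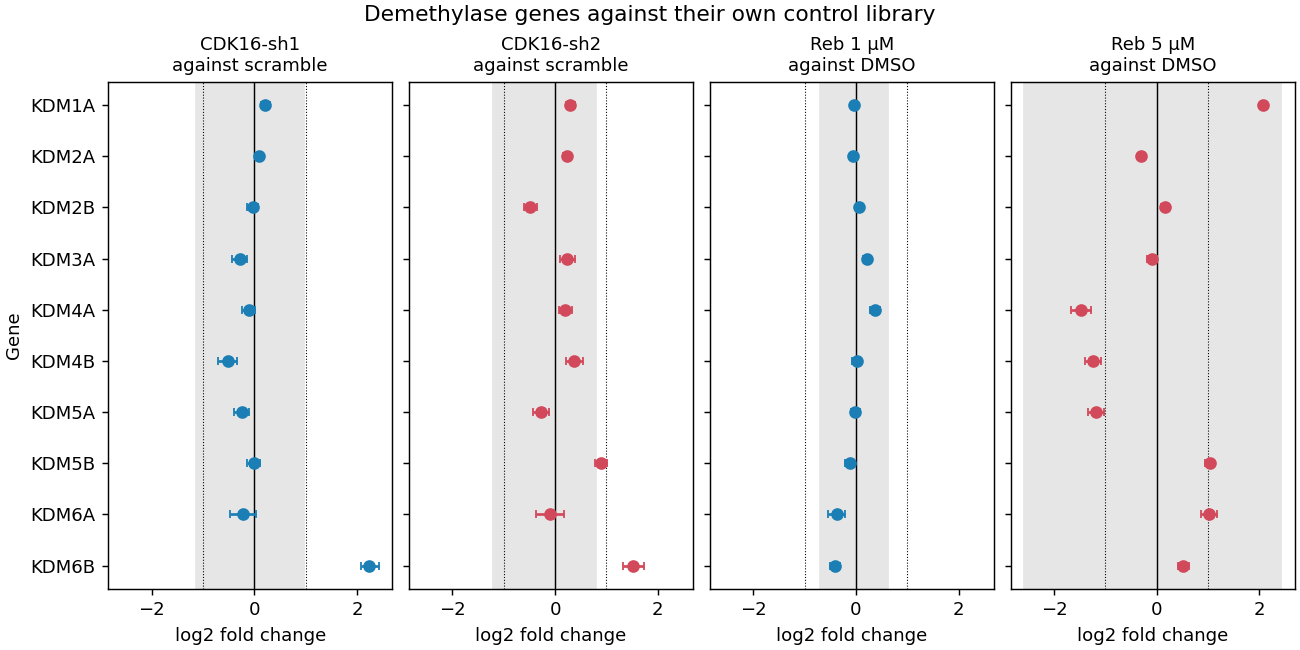
Log2 fold change of each gene against the control library of its own experiment, with 95% counting intervals as bars, the middle 90% of all tested genes shaded and 2-fold limits dotted. KDM6B lies outside the shading in both hairpin panels (2.24 and 1.52), KDM5B only in that of CDK16-sh2 (0.89), and all 10 genes lie inside it at 5 μM Reb.

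The scramble library had less KDM6B than the DMSO library of the other experiment, scaled together over 15752 symbols that passed the filter. Relative to DMSO, the KDM6B log2 ratio was -1.74 for scramble, 0.50 for CDK16-sh1 and -0.23 for CDK16-sh2. The hairpin libraries therefore lay on either side of DMSO, and scramble lay below all 3. With DMSO as the control, 0 of the 10 genes were 2-fold higher in a hairpin library, 3 were 2-fold lower in CDK16-sh1 (KDM1A, KDM3A and KDM4B) and 3 in CDK16-sh2 (KDM1A, KDM2B and KDM3A). Of all genes in that comparison 17.7% and 13.8% were 2-fold higher and 20.7% and 18.7% lower, so these counts are read as near the background. KDM1A was at -2.00, -1.79 and -1.72 in scramble, CDK16-sh1 and CDK16-sh2, KDM3A at -1.29, -1.58 and -1.06, and KDM4B at -1.21, -1.74 and -0.86. For KDM1A, KDM3A and KDM4B all knockdown libraries, scramble included, were on the same side of DMSO. KDM2A (-0.03, 0.06 and 0.18) and KDM4A (0.15, 0.04 and 0.34) were near DMSO in all 3. Experiment, lentiviral selection and library preparation cannot be told apart in these ratios.

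**Figure D3:**
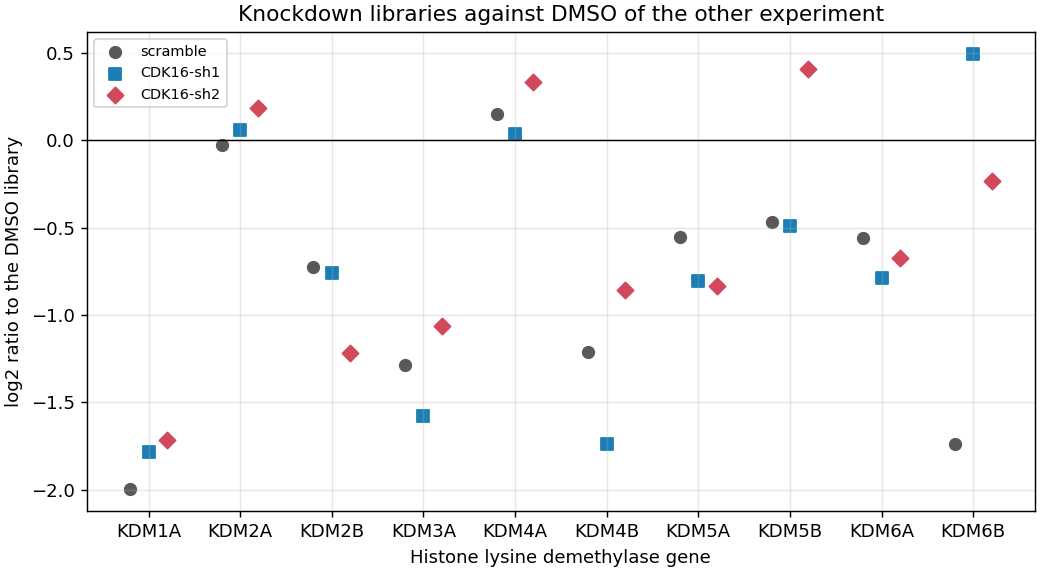
Log2 ratio of each knockdown library to the DMSO library of the Reb experiment, 1 point a library. KDM6B is the one gene where scramble (-1.74) lies far below both hairpin libraries (0.50 and -0.23), while KDM1A is low in all 3.

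Fold changes in the knockdown experiment varied with the GC content of the transcript. Across genes, which are not independent replicates, Pearson's r of log2 fold change with GC content was 0.44 for the sh1 hairpin and 0.12 for sh2 over 15093 genes. KDM6B, at 62.4% GC, was more GC-rich than 92.0% of tested genes. Among the 1298 genes within 2 percentage points of that content the median was 0.43 for sh1 and 0.12 for sh2. Of these genes, 1 and 3 respectively were at or above the KDM6B value, KDM6B included. Those contrasts chose KDM6B, so nothing is read from its place among them. After GC and length trends were removed, KDM6B stood at 1.96 and 1.47. KDM4B, nearly as GC-rich at 61.2%, was at -0.52 and 0.37 before that step.

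**Figure D4:**
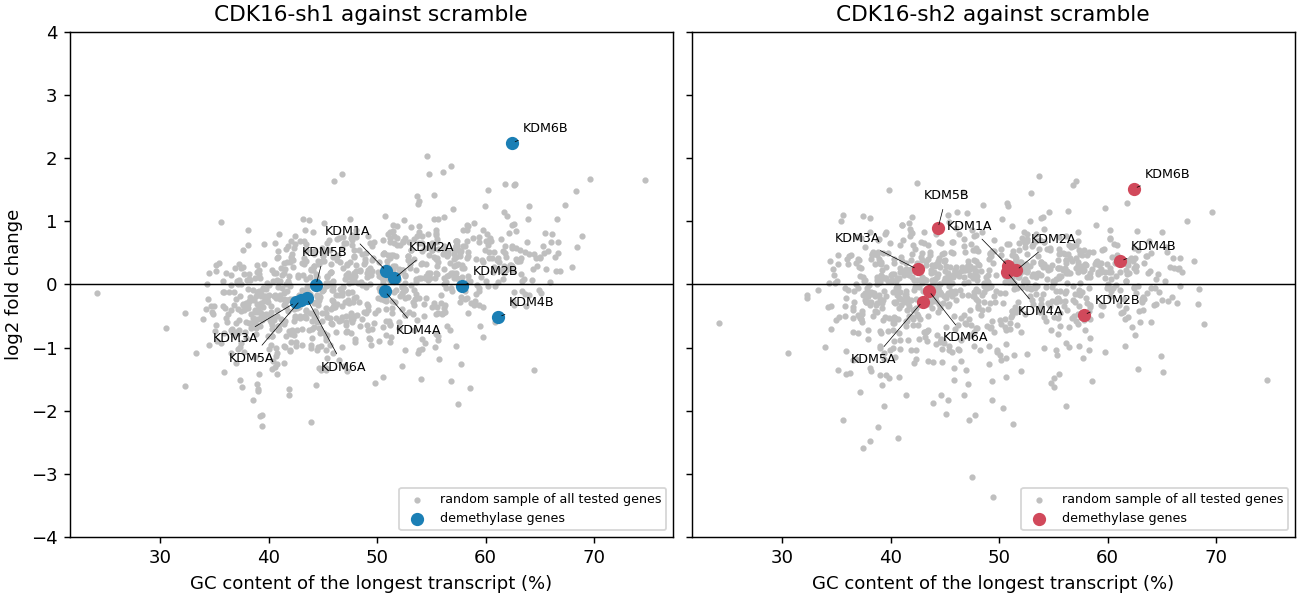
GC content of the longest transcript (%) against log2 fold change in each hairpin library, with the demethylase genes in colour and a random sample of all tested genes in grey. The grey points climb with GC content in CDK16-sh1 (r = 0.44) more than in CDK16-sh2 (r = 0.12), and KDM6B at 62.4% lies above them in both.

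The values of the genes around KDM6B are given as a description, since KDM6B was chosen for its own difference. Of the 10 other genes with at least 1 CPM whose midpoints lay within 100 kb, 0 were past 2-fold in both hairpin libraries. Over all tested genes 0.438% were 2-fold higher with both and 1.44% lower, so nothing is read from that count. DNAH2, an axonemal dynein gene upstream, was at 0.52 (sh1) and -0.89 (sh2). CYB5D1, the nearest downstream gene by midpoint, was at -0.20 and 0.79, and NAA38, a subunit of an N-terminal acetyltransferase, at 0.69 and 0.17. CHD3, a chromatin remodeller of the NuRD complex, was at 0.12 and 0.00. TRAPPC1, a vesicle-tethering subunit, was above scramble with both hairpins, at 0.86 and 0.50, as was RP11-1099M24.7, a 348-base gene whose span overlaps it, at 0.88 and 0.60. KCNAB3 was at 0.87 and 0.10, AC025335.1 at 0.65 and -0.02, CNTROB at 0.20 and -0.04, and RP11-1099M24.6 at -0.34 and 0.78.

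**Figure D5:**
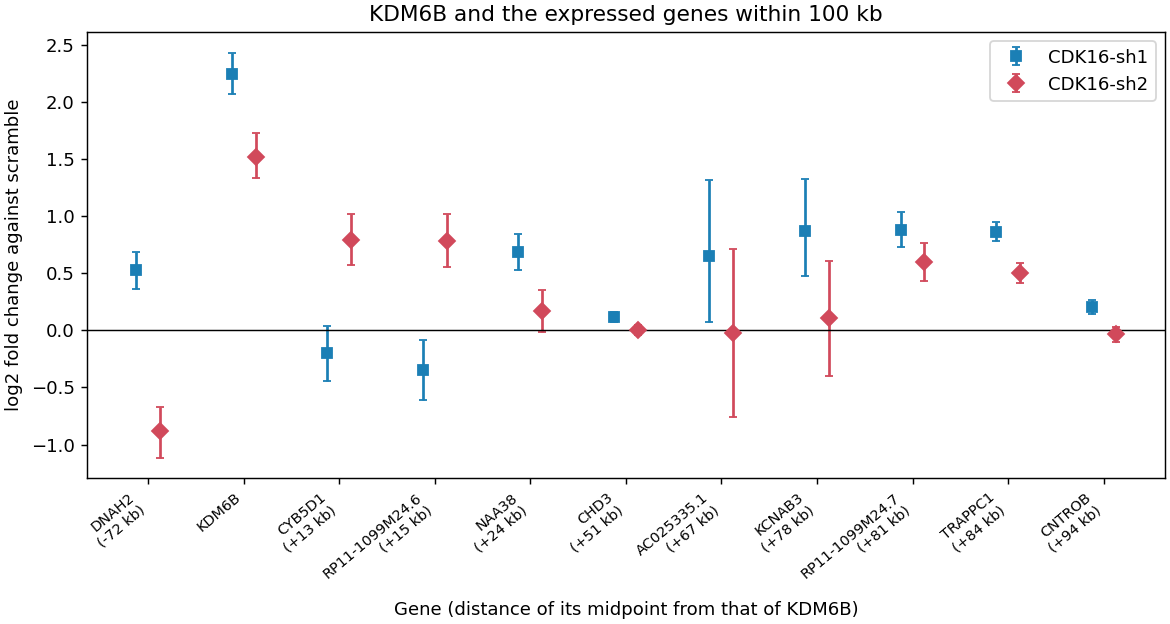
Log2 fold change against scramble, with 95% counting intervals, of KDM6B and the expressed genes within 100 kb, ordered by the distance between midpoints. KDM6B stands at 2.24 and 1.52, and the other genes lie between -0.89 and 0.88.

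By Euclidean distance over the 4 log2 fold changes, DYNLRB1 (distance 0.72), NR1D1 (0.76), MED19 (0.78), BCL7A (0.92) and SELPLG (1.01) were nearest to KDM6B among 10554 genes. DYNLRB1, a dynein light chain, counted 1614, 8634 and 6284 in scramble, CDK16-sh1 and CDK16-sh2, and NR1D1, a circadian nuclear receptor, counted 372, 2752 and 730. MED19, a Mediator subunit, counted 311, 1421 and 910. Likeness to KDM6B chose these genes, so their low scramble counts follow from the choice.

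With Reb the pattern of KDM6B was another one. It counted 1780 with DMSO, 1364 at 1 μM and 1185 at 5 μM, or 30.5, 23.0 and 43.8 CPM. The 1 μM library was below DMSO with a log2 fold change of -0.41 (-0.51 to -0.31), and the 5 μM library above it with 0.52 (0.41 to 0.63). The 5 μM value depended on the processing, being -0.17 by library totals and 1.40, past 2-fold, with GC and length trends removed. Across genes Pearson's r of log2 fold change with GC content was -0.30 at 1 μM and -0.20 at 5 μM. KDM6A counted 677, 531 and 638, with log2 fold changes of -0.37 at 1 μM and 1.02 at 5 μM (0.33 by library totals). KDM6B per length was 2.59 times KDM6A with DMSO (2.37 to 2.83), 2.53 times at 1 μM (2.28 to 2.80) and 1.83 times at 5 μM (1.66 to 2.01), a ratio that no scaling enters. By these ratios KDM6B lost ground to its paralog at 5 μM and not at 1 μM. They are not corrected for GC content, which was 62.4% for KDM6B and 43.5% for KDM6A. KDM6B over EZH2 per length was 0.130, 0.0878 and 0.0720 in the same order, lowest at 5 μM.

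KDM1A stood apart from the other 9 genes at 5 μM. It counted 14143 with DMSO, 14102 at 1 μM and 27677 at 5 μM, or 243, 238 and 1023 CPM. The raw count at 5 μM was the highest even though that library was the shallowest of the 3. At 1 μM it was level with DMSO (log2 fold change -0.03, interval -0.06 to 0.01). At 5 μM it was at 2.08 (2.05 to 2.11), or 1.39 by library totals. Per length it was 8.35 times KDM4A with DMSO, 6.32 times at 1 μM and 97.9 times at 5 μM (86.8 to 111).

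KDM4A, KDM4B and KDM5A were the low genes at 5 μM. KDM4A counted 1611 with DMSO, 2125 at 1 μM and 269 at 5 μM, with log2 fold changes of 0.38 (0.28 to 0.47) and -1.47 (-1.67 to -1.29). It was above DMSO at the low dose and below it at the high dose. KDM4B counted 2285, 2346 and 449 (0.01 and -1.24), and KDM5A counted 2037, 2048 and 416 (-0.02 and -1.18). Both were level with DMSO at 1 μM. By library totals the 3 genes were lower still at 5 μM, at -2.16, -1.93 and -1.87, and with GC and length trends removed KDM4B was at -0.33 and no longer past 2-fold. Exons of KDM4A share 464 bases with the antisense gene KDM4A-AS1, which counted 209, 272 and 28, and exons of KDM5A share 182 bases with CCDC77 on the other strand, which counted 1550, 1207 and 83. The kit marked strand, but whether the counting used it is not given in the sources used here, so the part of these reads in the genes' counts was not tested.

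KDM5B went the other way from KDM5A. It counted 2498 with DMSO, 2332 at 1 μM and 2364 at 5 μM, nearly equal raw counts in libraries of unequal depth. Its log2 fold change at 5 μM was 1.03 (0.95 to 1.11), or 0.34 by library totals. Within libraries, KDM5B over KDM5A per length was 1.23 (DMSO), 1.14 (1 μM) and 5.68 (5 μM, interval 5.12 to 6.32). KDM3A counted 3299, 3875 and 1434, with log2 fold changes of 0.21 and -0.09. KDM2A counted 5790, 5659 and 2177 (-0.06 and -0.30, or 0.18 at 5 μM with GC and length trends removed), and KDM2B counted 3784, 4004 and 1970 (0.06 and 0.17, or -0.52 at 5 μM by library totals). KDM2B shares 439 exonic bases with RNF34 on the opposite strand, which counted 3531, 3708 and 2914.

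At 1 μM, 0 of the 10 genes were past 2-fold in either direction, where 1.28% of 15655 tested genes were higher and 1.92% lower. At 5 μM, 3 of the 10 were at least 2-fold higher (KDM1A, KDM5B and KDM6A) where 23.6% of all tested genes were, and 3 were at least 2-fold lower (KDM4A, KDM4B and KDM5A) where 27.2% were. These shares are near the background, so the number of demethylase genes past 2-fold at 5 μM is not a result about them. At both doses, 0 of the 10 were past 2-fold, where 0.645% of tested genes were higher and 1.08% lower. By library totals only KDM1A was 2-fold higher (11.7% of all tested genes), and the same 3 genes were 2-fold lower (43.4%). The median over the 10 genes was -0.02 at 1 μM and 0.04 at 5 μM, beside 0.00 and -0.07 over all tested genes. The test that follows, of both doses as 1 group, took the difference between the doses as the spread. It therefore cannot decide on a change at 1 dose only, such as that of KDM1A (-0.03 and 2.08). In the edgeR quasi-likelihood test of both doses as 1 group against DMSO, with 1 residual degree of freedom, 0 of the 10 genes were called, where 0.0703% of genes were called higher and 0.0064% lower. None had an unadjusted p under 0.05, each had a Benjamini-Hochberg adjusted p of 1.00, and DESeq2 called 0 of them as well, where it called 0.083% of genes higher and 0.0256% lower. With dose as a linear term on log2(dose + 1), KDM1A alone was called (edgeR adjusted p = 0.0093), where 13.3% of genes were called higher and 11.1% lower. Before adjustment 4 of the 10 had a p under 0.05, beside 5914 of all 15655 tested genes, so that count is not a result about them. In that fit KDM4A had an adjusted p of 0.075 and KDM6B of 0.44.

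Levels between genes were compared per length, as the deposited RPKM (reads per kilobase of exon, relative to library depth). KDM1A was the highest and KDM2A the next in all 6 libraries, with KDM1A at 13.97 RPKM with scramble, 51.7 with DMSO and 135 at 5 μM Reb. KDM2A held 11.0 to 12.3 RPKM in 5 libraries and 5.57 at 5 μM Reb. Within the knockdown experiment KDM6B moved most in rank, from place 8 of 10 with scramble (1.57 RPKM) to place 3 in CDK16-sh1 (7.30) and place 5 in CDK16-sh2 (3.94). In the Reb experiment it held place 6 with DMSO (4.88), 7 at 1 μM (3.81) and 4 at 5 μM (4.34). With DMSO, KDM3A at 4.89 and KDM6B at 4.88 could not be ordered. KDM6A was the lowest in 4 of the 6 libraries, between 1.12 and 1.89 RPKM there, and KDM4B was the lowest in CDK16-sh1 (0.980) and at 5 μM Reb (0.810). With scramble, KDM6B, KDM4B (1.44) and KDM6A (1.38) lay close together at the bottom. In bulk RNA, fewer cells with a transcript and less of it per cell cannot be told apart.

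Genes of the same pathways were read from lists, and their values are not corrected for GC content. Beside the counts past 2-fold in both hairpin libraries, 0.438% of tested genes were higher and 1.44% lower. Of 13 other demethylase genes tested in the knockdown experiment, 0 were past 2-fold in both hairpin libraries, with medians of 0.02 and 0.13. JMJD6, a Jumonji protein better known as a lysyl hydroxylase, was at 0.95 and 0.83, the highest in CDK16-sh1. In CDK16-sh2 KDM7A was above it (0.68 against 0.63 by library totals), and KDM7A was also at 0.68 in CDK16-sh1. The lowest in both was KDM1B, the second flavin-dependent demethylase (-1.16 and -0.54). Of the 11 PRC2 genes, which write the mark that KDM6B removes, 8 were below scramble with both hairpins, where 30.9% of tested genes were. Their medians were -0.51 and -0.27. SUZ12, a core subunit, counted 1738, 591 and 1137 (-1.83 and -0.50), and AEBP2, an accessory subunit, 470, 371 and 189 (-0.61 and -1.20). Ranked by the smaller rise among those above scramble in both, EZH1 was first, at 0.27 and 0.44. By library totals PHF1 (0.85) was above it in CDK16-sh1, and JARID2 (0.62) in CDK16-sh2. Of 16 genes of the KMT2 complexes, the H3K4 methyltransferases that include KDM6A as a partner, 0 were past 2-fold in both. MEN1 was at 0.64 and 0.50, and RBBP5 at -0.71 and -0.82. In the CoREST complex, which holds KDM1A, RCOR1 was at -0.83 and -1.83 and HDAC2 at 0.20 and 0.59. BCOR, a PRC1.1 partner of KDM2B, was at -0.18 and -1.33, and PCGF1 at 0.84 and 0.40. Among 11 H3K9 and H3K36 methyltransferases SETDB1 was at 0.40 and 0.63 and SUV39H2 at -0.71 and -0.45. Of 6 tested HOX genes, classical targets of H3K27 methylation, HOXD1 was 2-fold higher in both with TMM (82, 264 and 163 counts, 0.89 in CDK16-sh2 by library totals) and HOXB3 2-fold lower in both (76, 32 and 18). Of 11 tested hypoxia markers, 0 were 2-fold higher or lower in both hairpin libraries with TMM, whereas EGLN3 (48, 25 and 23 counts) was lower in both by library totals (-1.18 and -1.09). Among markers averaging 5 CPM or more and moving the same way in both, NDRG1 rose most (0.71 and 0.69), by the smaller of its changes. PDK1 (-0.69 and -0.24) fell most by the same rule. ADM was 2-fold higher in CDK16-sh1 only, at 1.05 and -0.14 by library totals.

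In the Reb experiment the same lists were near DMSO at 1 μM, with 0 genes past 2-fold among the other demethylases and the PRC2, KMT2, CoREST, PRC1.1 and H3K9 and H3K36 methyltransferase genes. At 5 μM, 6 of 10 PRC1.1 genes were 2-fold higher beside 23.6% of all tested genes (4 beside 11.7% by library totals), among them RYBP at 917, 1012 and 5396 counts, SKP1 at 7806, 9013 and 11651 (log2 fold change 1.69 at 5 μM, 0.995 by library totals), and USP7 at 6872, 6688 and 15343. RING1 (-0.71 and -1.87) was the lowest of that list over both doses. Of 16 KMT2 genes, 7 were 2-fold lower at 5 μM beside 27.2% of all tested genes (10 beside 43.4% by library totals), with PAGR1 at 3302, 1940 and 285 counts, while CXXC1, a CpG-binding subunit, was at 4096, 4138 and 11010. PRC2 had 3 genes 2-fold higher (1 by library totals, JARID2) and 2 lower (4 by library totals), and SUZ12 counted 2993, 3286 and 412. In the CoREST list HDAC2 counted 12929, 15705 and 25888, so it was past 2-fold at 5 μM by both scalings like KDM1A. Of the other demethylase genes only KDM8 was past 2-fold at 5 μM (153, 102 and 30 counts, -1.21), and 4 of 12 were 2-fold lower by library totals. SUV39H1 counted 1029, 729 and 76, and SUV39H2 572, 737 and 589 (log2 fold change 1.15 at 5 μM, 0.46 by library totals). Of 10 tested HOX genes, 2 (HOXC8 and HOXC10) were 2-fold higher at both doses. PDK1 counted 390, 798 and 546 and was the hypoxia marker past 2-fold at both doses with TMM (1.00 and 1.59), but not at 5 μM by library totals (0.90), while SLC2A1 was below DMSO at both (-0.52 and -1.66).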

How the data were processed

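RNA-seq of 6 MDA-MB-231 libraries was used, grouped by their labels. Per the labels, reads from a stranded mRNA kit were trimmed with Trimmomatic and counted on GRCh38 with featureCounts from Subread 1.5.1 (submitters' processing notes). The aligner, annotation release and strand setting are not given in the sources used here. The deposited counts are whole reads per gene symbol, not normalized, and the deposited RPKM values are the authors' counts divided by gene length and library total. From the counts, CPM were scaled with TMM (edgeR 4.0.16) within each experiment, and log2 fold changes (prior count 2) were taken for genes averaging 1 CPM or more. A gene was called at 2-fold. With 1 library a condition no test was possible for a single condition. Both Reb doses were therefore tested as 1 group by edgeR's quasi-likelihood test over all genes. How well it performs where the doses differ widely was not tested. Counting intervals are 95% Clopper-Pearson. Alternatives were DESeq2 1.42.0, library totals, RPKM plus 0.1, a prior count of 0.5, no filter, no mitochondrial genes, removal of GC and length trends (loess, GENCODE transcripts), a 1.5-fold limit and a linear dose. Named were the 10 genes, listed genes past 2-fold in both treated libraries, the 5 nearest patterns, and neighbours within 100 kb. Added were the largest riser and faller of each list by the smaller change (averaging 5 CPM or more, same direction in both treated libraries). In the Reb experiment only some of these risers and fallers are reported. Further list genes past 2-fold at 5 μM (RYBP, USP7, CXXC1, JARID2, HDAC2, KDM8), EGLN3, EZH2, SUZ12, KDM7A, PHF1 and ADM were named after their values were seen. Genes and lists were chosen with earlier results of these data known. Protein sequences and hairpin sequences are not used here.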

Additional observations from a re-analysis of the deposited data

Results flagged for a closer look

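Several demethylase genes lay on opposite sides of their control in the 2 treated libraries of an experiment. These differences rest on 1 library each and were not tested. Between the hairpins, CDK16-sh2 minus CDK16-sh1 on the log2 scale was 0.52 for KDM3A and 0.89 for KDM4B. With GC and length trends removed KDM3A was above scramble with both hairpins (0.17 and 0.50). Between the doses, Reb 5 μM minus 1 μM was -1.85 for KDM4A, -0.30 for KDM3A, 1.15 for KDM5B, 1.39 for KDM6A and 0.93 for KDM6B. KDM6B was above DMSO at 5 μM with TMM scaling and below it by library totals (-0.17), so its opposite signs hold with TMM and not with library totals. KDM3A was above DMSO at 1 μM and below it at 5 μM with both scalings (-0.78 at 5 μM by library totals).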

How the results depend on the processing

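No paired analysis was possible because each condition had 1 library. KDM6B kept its side of scramble in both hairpin libraries under every alternative that kept scramble as the control. Its value in CDK16-sh1 was 1.96 with GC and length trends removed, and in CDK16-sh2 it was 1.32 by library totals and 1.28 with RPKM. With the DMSO library as the control, chosen after seeing the data, KDM6B was 0.50 in CDK16-sh1 and reversed to -0.23 in CDK16-sh2, with 0 genes 2-fold higher and 3 lower in each (17.7% and 13.8% of all genes higher, 20.7% and 18.7% lower). In CDK16-sh2, 2 genes were 2-fold higher with GC and length trends removed, and 2 past 1.5-fold, with KDM5B as the second in both. In CDK16-sh1, KDM3A (0.17), KDM5A (0.17), KDM5B (0.36) and KDM6A (0.09) changed from below to above scramble with those trends removed. KDM6B at 1 μM Reb was -0.22 with those trends removed. At 5 μM it was -0.17 by library totals and with RPKM, 0.32 without the filter and 1.40 with the trends removed, and 1 gene (KDM1A) in place of 3 was 2-fold higher by library totals, with RPKM and without the filter. The linear dose called 1 gene, KDM1A, in place of 0. Sampling depth does not limit these genes, with at least 220 counts in each library, whereas the lack of replicates does. The cause of these shifts was not tested.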
